A study of Mus musculus with 4 samples.

Results

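The data came from orthotopic pancreatic tumors of Pdgfrb-TK mice, grown with ganciclovir (GCV) or with saline (PBS), and the question was which cells and transcripts differed after the hosts' dividing Pdgfrb-expressing cells had been made sensitive to GCV. Pdgfrb-TK mice are C57BL/6 animals that carry thymidine kinase under the Pdgfrb promoter, so that GCV becomes toxic in dividing cells in which that promoter is active. All hosts were obese males on a high-fat diet, 7 months old by the labels (the study's methods give another age), and all carried grafted KPC cells, a mouse pancreatic cancer line. Both Pdgfrb-TK groups therefore share the transgene, the graft and the diet, and differ in GCV or PBS. The suspensions of each treatment were mixed before capture, so that each condition is 1 library of single-cell RNA-seq: Pdgfrb-TK/GCV (the GCV library) and Pdgfrb-TK/PBS (the PBS library). The series also holds D-CAN, from wild-type hosts given a peptide that kills stromal cells, and WT/PBS, from wild-type hosts given PBS, and these are quoted only beside a result. With 1 library per condition there is no replicate check of any difference, and no p-value is given. The intervals below cover counting error only, and treat each transcript as independent although transcripts come in cells.

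Cells were chosen by library and by a minimum of 200 detected genes, which kept 12280 cells of the GCV library and 10469 of the PBS library, 22749 of the 44554 cells kept in the series. The counted quantity is the unique molecular identifier (UMI), a tag for 1 captured transcript. The GCV library held 127722502 UMIs with a median of 6950 per cell, and the PBS library 84000174 with a median of 5203, so that values of the PBS library are the less precise. Both libraries shared 33 cell barcodes. Each cell was put into 1 of 9 classes by a count of marker genes, and the UMIs of each class were summed per library and expressed as counts per 1000000 UMIs of that class (CPM). Marker thresholds were set per pair of libraries, so most classes of D-CAN and WT/PBS had other thresholds. For fibroblasts it was 35.1 marker UMIs per 10000 there and 3.47 here. Levels quoted from D-CAN and WT/PBS are therefore not a like comparison. A fold is the CPM of the GCV library over that of the PBS library with an exact 95% interval. A gene is counted as higher or lower when its log2 ratio, with 1 CPM added to both levels, reached 2-fold among genes with at least 100 UMIs over both libraries. In the host classes the library with more UMIs decides most of what passes that filter. Over all cells of a class that is the GCV library in every class whose genes were compared, by the widest margin in B cells, T cells and macrophages. Genes high there therefore had the better chance of being counted.

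Pericytes and the fibroblasts of tumors carry PDGF receptor beta, which answers to PDGF-B made by endothelial cells, and pericytes steady new vessels partly through angiopoietin 1 acting on the endothelial receptor Tie2. At the front of a growing vessel, tip cells make Esm1, apelin and angiopoietin 2. Macrophages, neutrophils and lymphocytes reach a tumor through its vessels, and fibroblasts shape their surroundings by matrix, chemokines and cytokines.

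The classes carried the markers of their names. All of the listed markers of the tumor, fibroblast, endothelial, B, T, neutrophil, macrophage and dendritic classes were detected in their own class in both libraries, and in every host class all of its own markers lay above their level in the tumor class, apart from the 3 cells gated as pericytes in the GCV library, where 9 of 10 pericyte markers were detected. Transcripts from outside a cell were present everywhere. Summed over 12 tumor markers, the host classes of the GCV library with at least 10 cells held between 595 CPM in fibroblasts and 1294 CPM in T cells, and those of the PBS library between 820 CPM in fibroblasts and 2235 CPM in B cells, against 6610 and 9763 CPM in the tumor class. Haemoglobin set the libraries apart. Cells with at least 3 erythroid markers were 10 of the GCV library (0.0814%) and 113 of the PBS library (1.08%), and Hbb-bs, a beta globin, stood at 0 to 1.1 CPM over the host classes of the GCV library and at 35.9 to 3226 CPM over those of the PBS library. Haemoglobin genes were among the lower genes of several classes and are not described further as differences of a class. Some sums rested on few cells. Among the called values of named genes, 5 cells held more than 50% of the UMIs of the higher library for 8 of 46 values in macrophages, 3 of 26 in T cells, 11 of 30 in B cells, 14 of 32 in neutrophils, 9 of 19 in dendritic cells, 21 of 43 in endothelial cells, 10 of 52 in fibroblasts and 0 of 42 in tumor cells. Where such a value is discussed below, the number of cells with a UMI is given. Cells of the GCV library were the deeper ones, so those numbers show what a sum rests on and are not read as differences in shares. In cells placed in their class by both the gate and the clusters, summed macrophage markers were at 217 and 105 CPM in fibroblasts, 217 and 112 CPM in B cells, 211 and 76 CPM in T cells and 264 and 110 CPM in dendritic cells, and their part in the results of those classes was not tested.

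The share of macrophages, B cells and T cells was higher with GCV, and that of fibroblasts, pericytes and endothelial cells lower. Macrophages were 1750 cells or 14.3% (exact binomial interval 13.6 to 14.9) of the GCV library and 475 cells or 4.54% (4.15 to 4.95) of the PBS library, a ratio of shares of 3.14 (2.84 to 3.48). B cells were 382 cells or 3.11% (2.81 to 3.43) and 90 cells or 0.860% (0.692 to 1.06), a ratio of 3.62 (2.87 to 4.61). T cells were 239 cells or 1.95% and 61 cells or 0.583%, a ratio of 3.34 (2.51 to 4.50). None of these intervals of the ratio reached 1.

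Among the cells in which the Pdgfrb promoter is known to be active, fibroblasts were 296 cells or 2.41% (2.15 to 2.70) with GCV and 500 cells or 4.78% (4.38 to 5.20) with PBS, a ratio of 0.505 (0.436 to 0.584). Pericytes were 3 cells or 0.0244% (0.00504 to 0.0714) and 34 cells or 0.325% (0.225 to 0.454), a ratio of 0.0752 (0.0148 to 0.239). Clusters also called 1 of these cells with GCV and 32 with PBS pericytes, a ratio of 0.0266 (0.000654 to 0.160). Pdgfrb itself gave 295 UMIs over all cells of the GCV library (2.31 CPM) and 803 over those of the PBS library (9.56 CPM). The gene whose promoter drives the transgene was thus lower among the cells sequenced after GCV, both as cells of the classes that use it and as transcript. Endothelial cells, which line the vessels that pericytes cover, were 77 cells or 0.627% and 135 cells or 1.29%, a ratio of 0.486 (0.363 to 0.648).

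Neutrophils were 321 cells or 2.61% and 360 cells or 3.44%, a ratio of 0.760 (0.652 to 0.886). This ratio was 2.65 when each cell was thinned to 1500 UMIs and shallower cells were left out, so the direction for neutrophils, whose cells are shallow in both libraries (medians of 1796 and 1039 UMIs), depends on depth. Under the same thinning the ratio was 3.69 for macrophages, 14 for B cells and 8.47 for T cells. Dendritic cells, at 59 cells and 43 cells, had a ratio of 1.17 with an interval (0.776 to 1.78) that includes 1. Tumor cells were 7563 or 61.6% and 7808 or 74.6%, a ratio of 0.826 (0.800 to 0.852). A further 930 cells (7.57%) and 574 cells (5.48%) carried markers of more than 1 class and entered none.

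**Figure D1:**
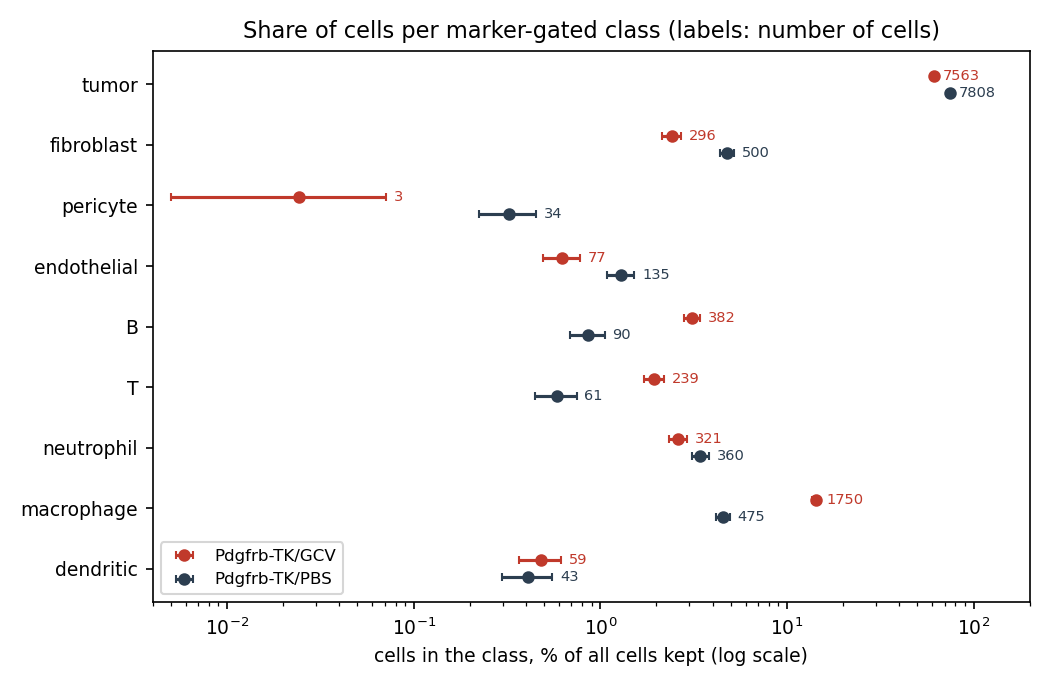
Share of cells per marker-gated class, in percent of all cells kept on a log axis, for Pdgfrb-TK/GCV (red) and Pdgfrb-TK/PBS (dark blue), with exact 95% binomial intervals as bars and the number of cells beside each point. Macrophages, B cells and T cells lie to the right with GCV, and fibroblasts, pericytes, endothelial cells and tumor cells to the left.

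Shares sum to a whole, so a share of all cells moves with the tumor cells. Of the 3127 and 1698 host cells alone, macrophages were 55.96% with GCV and 27.97% with PBS, B cells 12.2% and 5.30%, T cells 7.64% and 3.59%, fibroblasts 9.47% and 29.5%, neutrophils 10.3% and 21.2%, and endothelial cells 2.46% and 7.95%. The higher and the lower classes were the ones above on this denominator as well, except that dendritic cells were at 1.89% and 2.53%. The PBS libraries of the separate models also differed from each other. Pdgfrb-TK/PBS held 0.544 times the macrophage share of WT/PBS, 14.3 times its B cell share and 0.226 times its pericyte share. Its T cell share was 0.996 times that of WT/PBS. Gate thresholds differed between these libraries, at 1.43 and 1 marker UMIs per 10000 for T cells and 6.90 and 1.59 for macrophages. Those 2 ratios are therefore not a like comparison, while B cells and pericytes had a threshold of 1 in both. The T cell cluster, made over all 4 libraries, held 144 cells of Pdgfrb-TK/PBS and 102 of WT/PBS.

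Macrophages of the GCV library differed from those of the PBS library along several programs at once. Of 8705 genes tested, 379 (4.35%) were higher and 130 (1.49%) lower with GCV, and the median log2 ratio over all of them was -0.04. The higher genes included stress, hypoxia and p53 target genes and the chitinase-like protein Chil3, and the lower ones the chemokines Ccl7, Ccl8 and Ccl12, some scavenger receptors and some interferon-induced genes. The macrophage gate was not uniform. Cells in a cluster led by the C1q genes and Ms4a7 (cluster 16) made up 42.5% of it with GCV and 56.6% with PBS, and cells in a cluster led by Marco, Arg1 and Chil3 (cluster 17) 38.5% and 23.2%. Cells in a cluster led by mast cell proteases (cluster 4) made up 7.14% and 13.1%. Of 46 called values of named macrophage genes, 45 stayed on the same side of 2-fold in the 1464 and 401 cells that clusters and gate both placed with macrophages.

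Ccl7, Ccl8 and Ccl12, chemokines that attract monocytes, were lower with GCV over the whole macrophage class. Ccl8 was at 27.1 CPM with GCV and 365 CPM with PBS, a fold of 0.0744 (0.0640 to 0.0864) (D-CAN 506, WT/PBS 484). Its UMIs came from 88 of 1750 cells with GCV and 75 of 475 cells with PBS. Ccl7 was at 33.3 and 148 CPM, a fold of 0.226 (0.189 to 0.270) (D-CAN 131, WT/PBS 156). Ccl12 was at 81.8 and 269 CPM (D-CAN 268, WT/PBS 38.3), with 53.1% of its PBS sum in 5 of the 92 cells that had any. Ccl2, another of these chemokines, was at 122 and 239 CPM, a fold of 0.509 (0.450 to 0.577) just short of the call. The differences were not uniform. In the cells of cluster 17, Ccl12 was at 31.9 and 25.4 CPM, a fold of 1.26 (0.664 to 2.68), and Ccl8 at 5.51 and 5.07 CPM, a fold of 1.09 (0.270 to 9.48), and these wide intervals include 1. The phagocytosis list had 3 lower and 0 higher genes of 13. They were Gas6, a ligand that bridges dying cells to macrophage receptors (14.2 and 52.4 CPM), the scavenger receptor Cd36 (13.5 and 47.3 CPM) and Stab1 (92.8 and 199 CPM). The receptors Mertk and Axl, to which Gas6 binds, were at 336 and 405 CPM and at 142 and 169 CPM.

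Genes of the alternative (M2) list did not move as 1 block. Of the 12 that passed the filter, 6 were lower and 2 higher, with a median log2 ratio of -1.05. Stab1, a scavenger receptor, was at 92.8 and 199 CPM, a fold of 0.465 (0.406 to 0.535), and Mrc1, the mannose receptor, at 656 and 1310 CPM, a fold of 0.501 (0.475 to 0.528) just short of the call. Cd163, the receptor that takes up haemoglobin bound to haptoglobin, was at 13.2 and 65.5 CPM, and Lyve1, a hyaluronan receptor of perivascular macrophages, at 11.1 and 51.7 CPM. With PBS these levels came from 20 cells with a UMI of Cd163 and 21 of Lyve1 among 475, and 5 cells held 70% and 52.1% of them. Retnla, a resistin-like protein of alternatively activated macrophages, was at 1.60 and 257 CPM (D-CAN 1.19, WT/PBS 17.3). Its 353 UMIs in the PBS library lay in 13 of 475 cells, with 95.5% of them in 5 cells, so the gap rests on few cells. The higher genes of the list were Chil3 and Il10. Arg1, the arginine-consuming enzyme also counted as an M2 gene, was at 2334 and 1933 CPM, a fold of 1.21 (1.16 to 1.26). Haemoglobin, the cargo of Cd163, was itself high in the PBS library, and its part in these values was not tested.

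MHC class II genes, which present peptides to CD4 T cells, had a median log2 ratio of -0.51 over 9 genes in the whole class, with 1 lower and 0 higher. H2-Eb1 was at 636 CPM with GCV and 1286 CPM with PBS, a fold of 0.495 (0.469 to 0.522), and Cd74, the invariant chain, at 2290 and 4087 CPM, a fold of 0.560 (0.544 to 0.577). The difference lay unevenly over the clusters. In cluster 17, with 674 and 110 gated cells, Cd74 was at 578 and 3135 CPM, a fold of 0.184 (0.172 to 0.198), and H2-Aa at 177 and 1071 CPM, a fold of 0.165 (0.146 to 0.186). There 6 of 7 class II genes were lower, where 1.73% of all genes tested in cluster 17 were lower and 5.67% higher, and the median log2 ratio was -2.21. In cluster 16, with 743 and 269 cells, Cd74 was at 4024 and 4857 CPM, a fold of 0.829 (0.800 to 0.858), H2-Ab1 at 1548 and 1525 CPM, and the median over 9 genes was 0.02 with 0 called. These values within clusters describe cells whose expression also set the clusters.

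The M2 genes lay unevenly as well. In cluster 16, 7 of the 11 that passed the filter were lower and 1 higher, where 1.72% of all genes tested in that cluster were lower and 5.11% higher, and Stab1 was at 121 and 284 CPM, a fold of 0.426 (0.365 to 0.499). In cluster 17 only 7 M2 genes passed, of which 0 were lower and 2 higher, and Stab1 was at 75.3 and 73.6 CPM. The genes that passed were not the same number in each cluster, and members under the filter in cluster 17 went both ways, with Retnla at 3.21 and 91.3 CPM (14 and 36 UMIs) and Cd163 at 84 and 0 UMIs.

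Interferon-induced genes in macrophages had a median log2 ratio of -0.68 over 14 genes, with 4 lower and 0 higher. Ifi27l2a was at 97.9 and 418 CPM, a fold of 0.234 (0.211 to 0.260), Irf7, the regulator that amplifies type I interferon, at 8.71 and 25.5 CPM, Xaf1 at 10.3 and 32.0 CPM, and Oasl2 at 12.6 and 29.8 CPM. Irf1, which interferon gamma induces, went the other way, at 79.7 and 34.9 CPM, a fold of 2.28 (1.70 to 3.12), while the interferon gamma list as a whole had 1 higher and 0 lower of 15 genes and a median of -0.19. The T cell attractant Cxcl10 was at 52.8 and 85.9 CPM. Nos2, which makes nitric oxide in inflammatory macrophages, was at 69.1 and 48.0 CPM, a fold of 1.44 (1.12 to 1.88).

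Among the genes higher in macrophages with GCV were members of the hypoxia and p53 target lists. Of the hypoxia and glycolysis list, 9 of 24 genes were higher and 0 lower, with a median log2 ratio of 0.65. The glucose carrier Slc2a1 was at 299.7 and 104 CPM, a fold of 2.88 (2.44 to 3.43), Ndrg1 at 201 and 72.8 CPM, a fold of 2.76 (2.26 to 3.41), and Adm, the vessel-dilating peptide adrenomedullin, at 33.5 and 9.46 CPM. Ndrg1 differed in cluster 17 (360 and 98.9 CPM, a fold of 3.64) and not by 2-fold in cluster 16 (48.2 and 37.2 CPM, a fold of 1.29 with an interval of 0.882 to 1.96). Of the p53 target list, 6 of 14 genes were higher and 0 lower, with a median of 0.82. Gdf15 was at 72.2 and 14.6 CPM, a fold of 4.96 (3.19 to 8.17), Plk2 at 92.8 and 34.2 CPM, and Pmaip1, the pro-apoptotic Noxa, at 61.1 and 24.0 CPM. The proliferation list had 0 of 20 genes called in either direction and a median of -0.12.

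Chil3 was at 3336 CPM with GCV and 690 CPM with PBS in macrophages, a fold of 4.83 (4.53 to 5.16) (D-CAN 99.2, WT/PBS 501). It was higher within cluster 16 (1561 and 143 CPM) and within cluster 17 (5705 and 1966 CPM) too. Chil3 transcripts were also found in other classes, at 75.5 and 5.18 CPM in tumor cells and 152 and 8.09 CPM in fibroblasts (106 of 296 and 15 of 500 cells), and their part in its levels elsewhere was not tested. Ackr3, a scavenging receptor for Cxcl12, was at 129 and 21.8 CPM, a fold of 5.92 (4.12 to 8.80), and Gpat3, which starts triglyceride synthesis, at 92.7 and 15.3 CPM, a fold of 6.07 (3.95 to 9.85). D-CAN and WT/PBS, gated at another threshold, stood at 11 and 21.5 CPM for Ackr3 and at 31.9 and 25.8 CPM for Gpat3. Of 11 acute phase genes 7 passed the filter, which genes high in the deeper GCV library passed more easily, so no count of them is read. Saa3 was at 1362 and 397 CPM, Lcn2 at 59.5 and 13.1 CPM and Hp, haptoglobin, at 135 and 58.9 CPM. Of 21 cytokine genes, 5 were higher and 3 lower, with Csf1, the macrophage growth factor, at 45.2 and 17.5 CPM. Outside that list, Ptgs2, the inducible prostaglandin synthase, was at 226 and 111 CPM (D-CAN 458, WT/PBS 933).

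**Figure D2:**
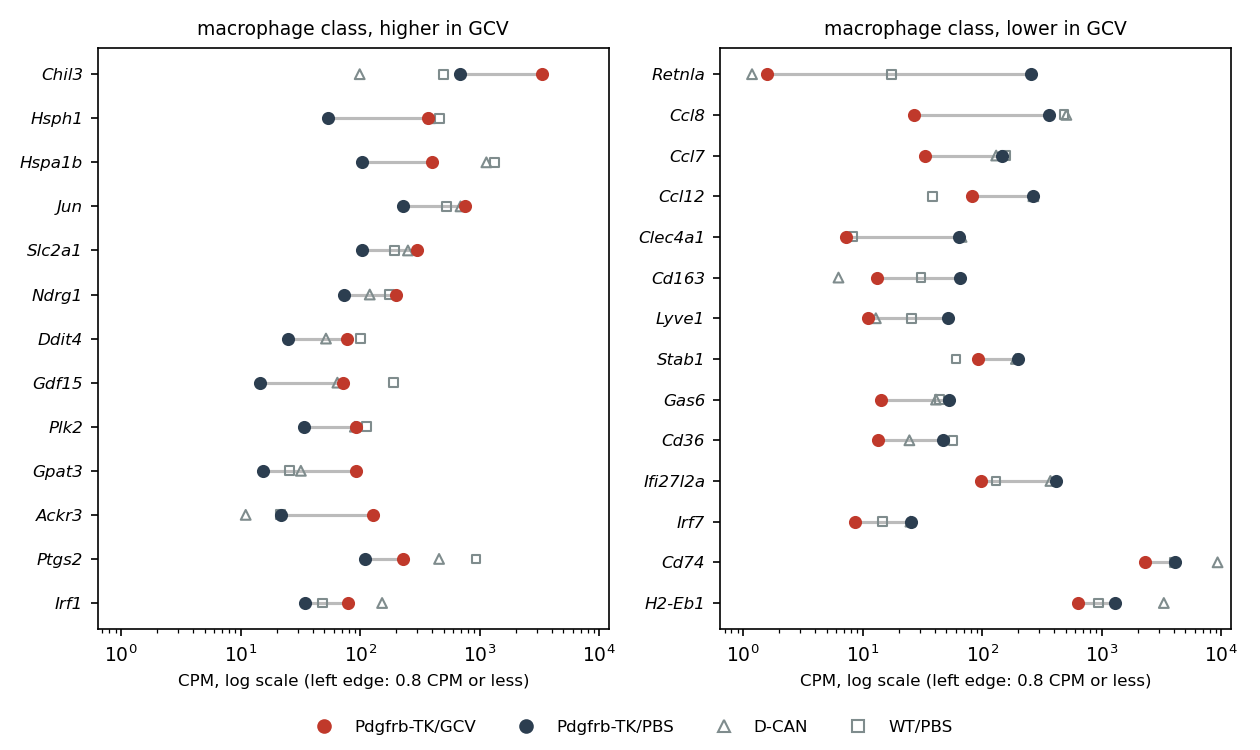
Levels in CPM on a log axis of 13 genes higher and 14 genes lower with GCV in the macrophage class, for Pdgfrb-TK/GCV (red), Pdgfrb-TK/PBS (dark blue), D-CAN (open triangles) and WT/PBS (open squares), 1 library each and without error bars. Ccl8 at 27.1 and 365 CPM and Retnla at 1.60 and 257 CPM, the latter resting on few cells, are the widest gaps among the lower genes. Macrophages of D-CAN and WT/PBS were gated at another threshold.

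T cells of the GCV library differed from those of the PBS library in some genes of naive and central memory T cells, in both directions. Of 966 genes tested, 73 (7.56%) were higher and 38 (3.93%) lower with GCV, with a median log2 ratio of 0.06. Of 12 listed naive and memory genes 9 passed the filter, some of them only through the deeper GCV library, so no count of them is given. The levels below describe single genes and are not read as a shift of the list. Ccr7, the receptor that leads T cells to lymph nodes, gave 107 UMIs with GCV (180 CPM) and 0 with PBS, at least 5.07-fold higher with the PBS library set to 3 UMIs (D-CAN 70 CPM, WT/PBS 89.4 CPM). UMIs of Ccr7 lay in 58 of 239 cells with GCV and 0 of 61 with PBS. The T cells of the PBS library were shallow, with a median of 1037 UMIs against 1941, so a cell without a UMI of Ccr7 may still express it, and the floor of 3 counts allows up to 4.92% of cells with a UMI. Satb1, a chromatin organizer of resting T cells, was at 1083 and 249 CPM, a fold of 4.36 (2.83 to 7.09) (D-CAN 230, WT/PBS 438). Lef1 was at 774 and 308 CPM, a fold of 2.51 (1.69 to 3.89), S1pr1, which lets T cells leave lymphoid tissue, at 163 and 47.4 CPM, a fold of 3.45 (1.30 to 12.9), and Klf2, which drives S1pr1, at 294 and 107 CPM, a fold of 2.76 (1.42 to 6.14). S1pr1 rests on 4 UMIs in the PBS library, and Klf2 is also on the stress list described below. A listed gene in the other direction was Il7r, the interleukin 7 receptor, at 268 and 734 CPM, a fold of 0.364 (0.270 to 0.497).

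Among the lower genes were Ccl5, S100a4, Rora and St6galnac3. Ccl5, the chemokine of effector T cells, was at 385 and 1065 CPM (D-CAN 1067, WT/PBS 935), but 90% of its 90 UMIs with PBS lay in 5 of the 10 cells that had any. S100a4 was at 146 and 545 CPM, a fold of 0.269 (0.186 to 0.393), Rora at 146 and 509 CPM, a fold of 0.288 (0.197 to 0.425), and the sialyltransferase gene St6galnac3 at 271 and 1669 CPM, a fold of 0.162 (0.129 to 0.205), with a UMI in 70 of 239 and in 44 of 61 cells. Ikzf2, the Helios factor of regulatory T cells, was at 326 and 568 CPM and Tox, a factor of chronically stimulated T cells, at 538 and 320 CPM, neither past 2-fold. Ccl5 was the only one of 16 cytotoxic effector genes to pass the filter, so the rest of that list could not be compared at this depth of 84469 UMIs in the PBS library. Cd3e, a gate marker, was at 150 and 308 CPM. Of the 26 called values, 25 stayed past 2-fold in the 232 and 60 T cells that the clusters placed likewise.

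The B class of the GCV library held a few cells rich in switched immunoglobulin and secretion transcripts, and its other genes differed less. Of 1513 genes tested, 97 (6.41%) were higher and 47 (3.11%) lower with GCV, with a median log2 ratio of 0.03. Of 18 genes of the germinal center and plasma list 6 passed the filter, mostly through the GCV library where they were high, so no count of them is read. Ighg2c, a constant region of IgG, gave 984 UMIs with GCV (1106 CPM) and 0 with PBS, at least 40.9-fold higher with 3 UMIs as the floor, and Ighg1 gave 466 UMIs (524 CPM) and 0, at least 19.4-fold higher. Ighg2b gave 377 UMIs and 1 UMI, a fold of 47.0 with an interval from 8.39 to 1863. These sums came from 9, 8 and 7 of 382 cells with GCV, and 5 cells held 99.6% of the Ighg2c UMIs. For Ighg2c, the exact interval for 0 of 90 cells with PBS reaches 4.02%, above the 2.36% of cells with GCV. The folds and their lower bounds therefore describe summed UMIs, and a difference in the share of such cells is not shown. Jchain, which joins secreted IgM and IgA, was at 1006 and 144 CPM, a fold of 6.98 (4.27 to 12.3), Xbp1, the factor of secretory cells, at 143 and 18 CPM, a fold of 7.92 (2.15 to 66.1), and Mzb1, a chaperone of antibody assembly, at 351 and 81.1 CPM, a fold of 4.33 (2.25 to 9.55). Jchain was found in 17 of 382 and 1 of 90 cells and Xbp1 in 49 and 2, so their PBS levels rest on 1 and 2 cells. Mzb1 was found in 53 of 382 and 7 of 90 cells, with 9 UMIs in the PBS library. With GCV, 5 cells held 77.8% of the Jchain UMIs and 74.4% of those of Mzb1. D-CAN held 997 CPM of Ighg2c, 2985 of Ighg1 and 2533 of Jchain, and WT/PBS 0 of each over its few B cells. Immunoglobulin constant genes resemble one another, so reads could be divided unequally among them.

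Of 16 genes of the B cell activation list 5 passed the filter. Genes high in the deeper GCV library passed more easily here too, so no count of them is read. Cd86, a costimulatory molecule of activated B cells, was at 346 and 135 CPM, a fold of 2.56 (1.53 to 4.63), with a UMI in 150 of 382 and 12 of 90 cells, and Nfkbia, which NF-kB induces, at 178 and 54.1 CPM, a fold of 3.29 (1.48 to 9.09) on 6 UMIs in the PBS library. In tumor cells Nfkbia stood at 184 and 101 CPM. The other members were Cd83 at 323 and 261 CPM, Egr1 at 120 and 90.1 CPM and Nr4a1 in the other direction at 105 and 144 CPM, none past 2-fold. H2-Ob was at 118 and 45.1 CPM, and Cd74 at 3627 and 2983 CPM, a fold of 1.22 (1.09 to 1.37). The 8 class II genes that passed the filter in B cells had a median log2 ratio of 0.19, where macrophages had -0.51, and no count of them is read either. Btla, an inhibitory receptor, was lower at 112 and 424 CPM, a fold of 0.266 (0.186 to 0.384), and so was March1, the ligase that turns over class II and Cd86, at 126 and 406 CPM, a fold of 0.311 (0.218 to 0.449). The 10 naive and follicular genes that passed had a median of -0.23, again without a count. All 30 called values stayed past 2-fold in the 376 and 88 B cells placed alike by clusters.

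Neutrophils of the GCV library had less transcript of Ccrl2, Gadd45b and Rsad2 and, in few cells, of granule genes made during maturation in the marrow. Of 2078 genes tested, 129 (6.21%) were higher and 46 (2.21%) lower with GCV, with a median log2 ratio of 0.10. The gate took in different cells in the libraries: 16.2% of gated neutrophils with GCV and 1.94% with PBS lay in the macrophage cluster led by Marco, Arg1 and Chil3, and the summed neutrophil markers were at 14031 and 41451 CPM. Values are therefore given for the 250 and 329 cells that clusters also called neutrophils, in which the markers stood at 24677 and 47470 CPM. The markers were thus lower with GCV in these cells too, and their part in the lower values of other genes was not tested. Of 1299 genes tested there, 3.46% were higher and 1.92% lower. The 13 mitochondrially encoded genes, a measure of RNA quality, had 3 of 12 higher and a median log2 ratio of 0.91 in these cells, and their part in the results was not tested. There Camp, the cathelicidin, was at 260 and 2007 CPM, a fold of 0.129 (0.107 to 0.156), Ngp, neutrophil granule protein, at 367 and 2273 CPM, a fold of 0.161 (0.137 to 0.190), and Ltf, lactoferrin, at 130 and 622 CPM, a fold of 0.208 (0.156 to 0.275). Camp over all gated neutrophils was at 140 and 1731 CPM (D-CAN 2078, WT/PBS 3945). The Camp sums came from 3 of 250 and 13 of 329 cells, those of Ngp from 8 and 20 and those of Ltf from 12 and 25, so these differences rest on at most 25 cells of a library.

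Of the cytokines of those neutrophils, Il1b was at 4389 and 7768 CPM, a fold of 0.565 (0.535 to 0.597), and the chemokine Ccl3 at 1516 and 2667 CPM, a fold of 0.569 (0.517 to 0.625), neither past 2-fold. Ccrl2, which holds the chemoattractant chemerin at the cell surface, was at 1125 and 2555 CPM, a fold of 0.440 (0.397 to 0.489), over 153 of 250 and 229 of 329 cells with a UMI, Gadd45b at 916 and 2099 CPM, a fold of 0.437 (0.389 to 0.490), and Rsad2, the antiviral viperin, at 138 and 336 CPM. Beside these values, the summed neutrophil markers of the same cells were at 24677 and 47470 CPM. Spp1, osteopontin, was higher at 1358 and 677 CPM, a fold of 2.01 (1.74 to 2.32). Arg1 was at 110 and 19.9 CPM in these cells and at 1320 and 98.4 CPM over the whole gate, and Mmp12 at 40.5 and 2.49 CPM and at 434 and 27.8 CPM (37 of 321 and 4 of 360 cells), so most of their higher level over the gate went with the cells of macrophage clusters. All 5 class II genes that passed the filter were higher over the gate, with a median log2 ratio of 1.80. For Cd74 these UMIs lay in 60 of 321 and 38 of 360 cells, with 76.9% of the GCV sum in 5 cells. None of the 5 passed the filter in the cells placed alike, where Cd74 was at 95.3 and 89.6 CPM. Of 32 called values over the gate, 16 stayed past 2-fold.

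**Figure D3:**
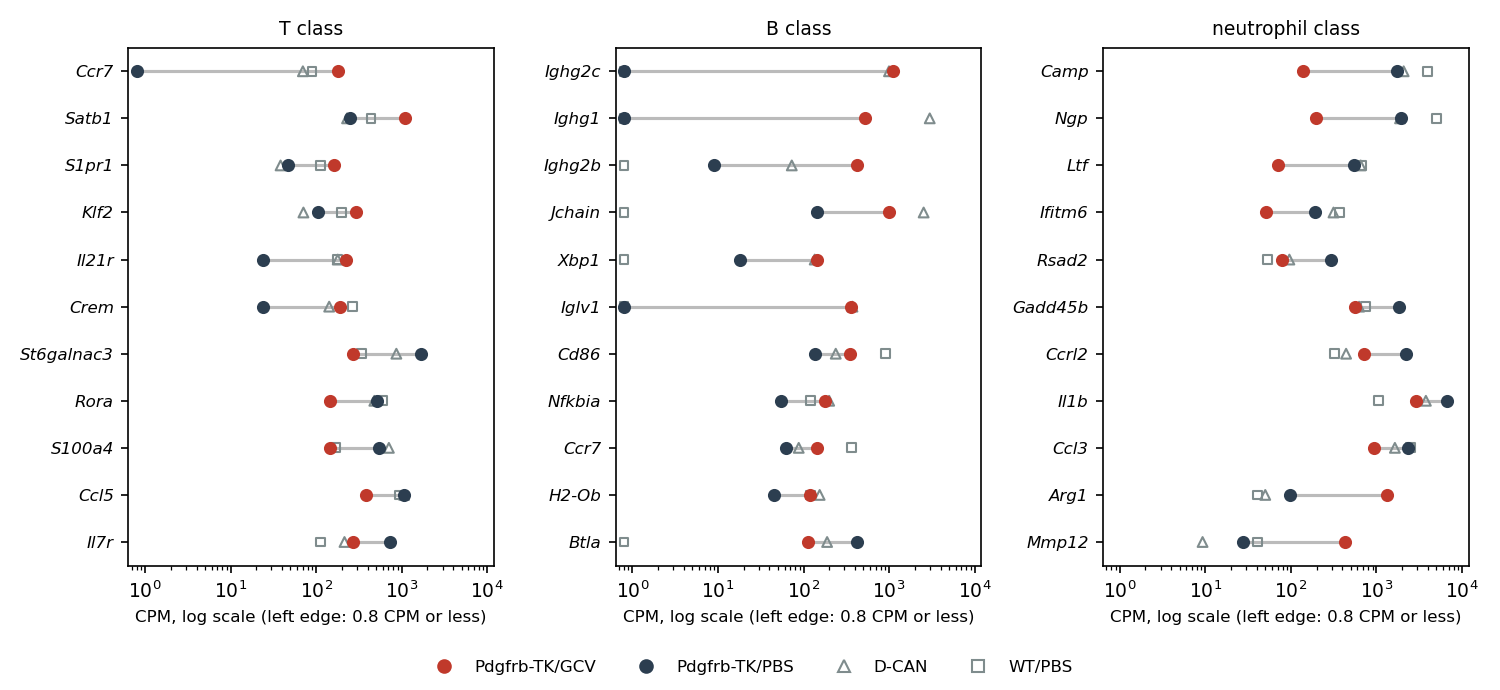
Levels in CPM on a log axis in the T, B and neutrophil classes for Pdgfrb-TK/GCV (red), Pdgfrb-TK/PBS (dark blue), D-CAN (open triangles) and WT/PBS (open squares), 1 library each and without error bars. Points at the left edge of 0.8 CPM, such as Ccr7 in T cells and Ighg2c in B cells with PBS, stand for 0 UMIs, and the neutrophil panel shows the whole gate, with Camp at 140 and 1731 CPM.

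Dendritic cells were few, at 59 and 43 cells with 315566 and 139452 UMIs. Of 631 genes tested, 58 (9.19%) were higher and 9 (1.43%) lower with GCV, with a median log2 ratio of 0.01. Heat shock genes were among the higher ones, with Hsph1 at 627 and 35.9 CPM, a fold of 17.5 (7.37 to 54.5), and Bag3, a co-chaperone, at 311 and 14.3 CPM, a fold of 21.7 (5.84 to 181) on 2 UMIs in the PBS library. Dcstamp, a fusion protein of dendritic cells and osteoclasts, was at 456 and 35.9 CPM, from 21 of 59 and 2 of 43 cells. In contrast, Wdfy4, needed for cross-presentation by type 1 dendritic cells, was at 330 and 753 CPM, a fold of 0.438 (0.331 to 0.580). The chemokine Ccl17 was at 2050 and 1226 CPM, a fold of 1.67 (1.41 to 1.99), and 0 of 6 class II genes were called, with a median of 0.17. The neutrophil and macrophage genes Cxcl2 (1052 and 57.4 CPM, in 20 of 59 and 7 of 43 cells) and Arg1 (377 and 7.17 CPM, in 18 and 1 cells) stood high over the gate, and at 210 and 70.0 CPM and 53.8 and 10.0 CPM in the 43 and 35 cells placed alike. Of the 19 called values, 16 stayed past 2-fold in those cells.

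Endothelial cells of the GCV library were fewer and richer in some tip cell transcripts. Over the gate, 177 of 1899 genes (9.32%) were higher and 88 (4.63%) lower with GCV, with a median log2 ratio of 0.04. Among the gated cells 20.8% with GCV and 1.48% with PBS lay in a tumor cell cluster led by Lingo2, Nkain2 and Pcdh9, and the summed endothelial markers were at 4179 and 8196 CPM. In the 49 and 124 cells that clusters also called endothelial, these markers were at 8238 and 9099 CPM, Nkain2 was at 0 UMIs in both libraries, and the values that follow are from those cells. Of the 41 called values over the gate that had UMIs in them, 17 stayed past 2-fold. These cells held 245685 UMIs with GCV and 345187 with PBS, so here genes high in the PBS library passed the filter more easily.

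Esm1, Apln and Angpt2, genes of tip cells, were higher in both sets of cells. Esm1, endocan, was at 1400 CPM with GCV and 214 CPM with PBS, a fold of 6.53 (5.07 to 8.51), where the whole gate had 641 and 188 CPM. Apln, the ligand apelin, was at 973 and 177 CPM, a fold of 5.51 (4.14 to 7.42), and Angpt2, the Tie2 ligand that loosens vessels, at 733 and 142 CPM, a fold of 5.16 (3.75 to 7.23). UMIs of Esm1 were found in 28 of 49 cells with GCV and 17 of 124 with PBS, those of Apln in 23 and 16 and those of Angpt2 in 22 and 14, with 55.2% to 58.9% of the GCV sums in 5 cells. Esm1 over the whole gate was at 210 CPM for D-CAN and 109 for WT/PBS. Of 10 tip and angiogenic genes that passed the filter, 4 were higher and 0 lower, where 2.92% of the 1029 genes tested in those cells were higher and 1.65% lower. The median log2 ratio of the list was 0.58, against 0.01 over all genes. Over the whole gate the list had 3 higher and 1 lower of 10 and a median of -0.11, so its direction differed between the sets of cells. Basement membrane collagen Col4a1, on the same list, was at 3419 and 3870 CPM, a fold of 0.883 (0.809 to 0.964). Fn1, fibronectin, was at 1095 and 316 CPM, a fold of 3.47 (2.77 to 4.37).

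Some other endothelial genes were lower. Aplnr, the apelin receptor of veins and of the cells behind the tip, was at 134 and 423 CPM, a fold of 0.318 (0.211 to 0.466), and Lrg1, a glycoprotein of activated venous endothelium, at 167 and 449 CPM, a fold of 0.372 (0.257 to 0.527). Stox2 was at 179 and 550 CPM, a fold of 0.325 (0.229 to 0.454). Gpihbp1, which holds lipoprotein lipase on capillaries, was at 578 and 999.5 CPM, a fold of 0.578 (0.472 to 0.705), and Cd36, a fatty acid carrier, at 444 and 719 CPM, a fold of 0.618 (0.488 to 0.777), neither past 2-fold. The arterial, venous and capillary list had 1 lower and 0 higher of 7 genes with a median log2 ratio of -0.69 in the cells placed alike, and 4 lower and 0 higher over the gate. Tek, the Tie2 receptor and a gate marker of this class, was at 122 and 220 CPM, a fold of 0.555 (0.351 to 0.857). The junction gene Cldn5, also a gate marker, was at 281 and 339 CPM, with an interval of the fold (0.606 to 1.13) that includes 1. Emcn, endomucin, was at 1087 and 834 CPM, a fold of 1.30 (1.1 to 1.54), where the gate had 509 and 738 CPM. The direction for Emcn thus differed between the sets of cells.

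Fibroblasts of the GCV library had less matrix and PDGF receptor transcript and more cytokine and stress transcript. Of 6852 genes tested, 145 (2.12%) were higher and 213 (3.11%) lower with GCV, with a median log2 ratio of -0.08. Pdgfrb was at 56.8 and 223 CPM, a fold of 0.255 (0.213 to 0.304), from 94 of 296 and 202 of 500 cells with a UMI (D-CAN 226 CPM, WT/PBS 156 CPM). Pdgfra, the other PDGF receptor, was at 213 and 233 CPM, a fold of 0.913 with an interval (0.813 to 1.02) that includes 1, and decorin, Dcn, at 2612 and 2267 CPM. Pdgfra is a gate marker of this class and Pdgfrb is not. Cells were thus chosen partly by their Pdgfra counts, and the levels of the receptors are not a like comparison. The cells sat in clusters in unequal shares. Cluster 0 held 73.0% of the class with GCV and 55.2% with PBS, a cluster led by Lrrc15, Col12a1 and Col8a1 4.05% and 19.6%, and a cluster led by Clec3b, Dpt and Pi16 4.05% and 7.8%. In the fibroblasts placed alike by clusters, the summed fibroblast markers, which include collagens and Lum, were at 13211 and 21341 CPM, and their part in the lower matrix transcript was not tested.

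The matrix list had 5 lower and 0 higher of 21 genes and a median log2 ratio of -0.66. Of the list, Col1a1, Col1a2, Col3a1, Col5a1 and Lum are also gate markers of this class. Postn, periostin, was at 108 and 426 CPM, a fold of 0.252 (0.222 to 0.286), and Eln, elastin, at 56.1 and 206 CPM, a fold of 0.272 (0.227 to 0.325). Lum, lumican, was at 93.1 and 313 CPM, a fold of 0.298 (0.258 to 0.342). Col8a1, a short-chain collagen outside the list, was at 52.8 and 399 CPM, a fold of 0.132 (0.111 to 0.157). Within cluster 0, with 216 and 276 cells, Col8a1 was at 49.8 and 121 CPM, a fold of 0.411 (0.327 to 0.515), nearer to 1 than over the class. There Eln was at 49.1 and 201 CPM, Lum at 74.4 and 282 CPM and Pdgfrb at 49.4 and 143 CPM, a fold of 0.346 (0.277 to 0.430), so these were lower there too. Postn was at 17.6 and 29.7 CPM in cluster 0, a fold of 0.594 (0.388 to 0.907). Of the pericyte function list, 3 of 9 genes were lower in fibroblasts and 0 higher, with Angpt1, the steadying Tie2 ligand, at 42.9 and 109 CPM, a fold of 0.394 (0.316 to 0.488). Beside it, Angpt2, its antagonist, was higher in the endothelial cells, at the values given above. Acta2, smooth muscle actin, was at 251 and 403 CPM, a fold of 0.622 (0.565 to 0.685).

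The cytokine list of the fibroblasts had 6 of 10 genes higher and 0 lower, with a median log2 ratio of 1.36. In the 240 and 413 fibroblasts placed alike it had 4 of 9 higher and 0 lower, with a median of 0.83. Within cluster 0 it had 5 of 8 higher and 0 lower, with a median of 1.47. Il6 was at 88.8 and 12.8 CPM, a fold of 6.95 (4.76 to 10.5), from 78 of 296 and 22 of 500 cells. It stood at 274 CPM for D-CAN and 328 CPM for WT/PBS, whose fibroblasts passed a higher marker threshold, so the levels are not ranked. Cxcl1, a neutrophil attractant, was at 107 and 31.9 CPM, a fold of 3.35 (2.60 to 4.37). Outside the list, Ptgs2 was at 143 and 32.8 CPM, a fold of 4.37 (3.42 to 5.64). Tnfaip6, which cross-links hyaluronan and is not on the list either, was at 219 and 41.3 CPM, a fold of 5.32 (4.29 to 6.65). Cxcl13, the attractant of B cells and also outside the list, was at 41.2 and 378 CPM, a fold of 0.109 (0.0899 to 0.132). It stood at 18.8 CPM both for D-CAN and for WT/PBS, and these levels are not ranked either. Cxcl13 is among the leading genes of cluster 0, which held 302 cells of the GCV library and 381 of the PBS library. The cluster led by Lrrc15, Col12a1 and Col8a1 held 1508 cells of WT/PBS, and that led by Clec3b, Dpt and Pi16 held 665 of D-CAN. UMIs of Cxcl13 came from 28 and 50 cells. The acute phase proteins Saa3 and Slpi were at 5105 and 2065 CPM and at 1333 and 638 CPM, folds of 2.47 (2.39 to 2.55) and 2.09 (1.97 to 2.22). The cell cycle inhibitor Cdkn1a was at 427 and 95.3 CPM, a fold of 4.48 (3.88 to 5.19), with 5 of 12 p53 target genes higher and 0 lower. Hypoxia and glycolysis genes were higher for 10 of 23, with Car9 at 51.5 and 10.2 CPM. Of 52 called values, 51 stayed past 2-fold in the 240 and 413 fibroblasts placed alike.

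Tumor cells are not targets of the transgene, since only the hosts carry it. Of 14011 genes tested in them, 624 (4.45%) were higher and 240 (1.71%) lower with GCV, with a median log2 ratio of 0.11. Clusters named as tumor cells were unequally filled, counted over all cells kept. A cluster led by Gkn2, Gkn1 and Tff1 (cluster 6) held 240 cells of the GCV library and 1384 of the PBS library. A cluster led by Csf2, Qrfp and Mmp10 (cluster 13) held 951 and 128. A cluster with the hypoxia genes Adm, Bnip3 and Ero1l among its leading genes (cluster 7) held 570 and 206. The part of such unequal clusters in the values of the tumor class was not tested. Genes of gastric mucous cells were lower in the class, 6 of 13 with 0 higher and a median of -0.99. Tff1, a trefoil peptide of mucus, was at 1311 and 6320 CPM, a fold of 0.207 (0.206 to 0.209), Gkn2 at 46.5 and 274 CPM, a fold of 0.169 (0.164 to 0.175), and the mucin Muc5ac at 7.54 and 48.0 CPM. The list was also lower in host classes, with medians of -1.24 over 5 genes in fibroblasts and -1.06 over 8 in macrophages, and the part of tumor transcripts outside cells in those values was not tested. Mesenchymal and invasion genes were higher, 10 of 20 with 0 lower and a median of 1. Of this list, Fn1 was at 1088 and 389 CPM, a fold of 2.80 (2.76 to 2.83). Outside it, Has2, the hyaluronan synthase, was at 54.7 and 3.73 CPM, a fold of 14.7 (13 to 16.6). Ccn1 was at 125.5 and 18.3 CPM, a fold of 6.88 (6.5 to 7.28), and Tnc, tenascin C, at 92.7 and 17.2 CPM, a fold of 5.39 (5.08 to 5.72), both outside the list too. These intervals are narrow because the sums are large, and they do not cover differences between tumors. UMIs of Has2 were found in 1715 of 7563 and 185 of 7808 cells. The level of Has2 was 26.3 CPM for D-CAN and 5.48 for WT/PBS, and that of Ccn1 51.2 and 167.

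Tumor cells also held more transcript of the vessel growth factors Vegfc and Pgf, and of the receptor Flt1, a marker of the endothelial gate. Of 9 genes of the VEGF list, 3 were higher and 0 lower: Vegfc, the lymphatic growth factor, at 54.4 and 21.5 CPM, a fold of 2.53 (2.40 to 2.68), Pgf, placental growth factor, at 27.1 and 11.5 CPM, a fold of 2.36 (2.19 to 2.56), and Flt1, a VEGF receptor, at 55.9 and 20.4 CPM, a fold of 2.74 (2.58 to 2.90). Vegfa was at 165 and 99.5 CPM, a fold of 1.66 (1.62 to 1.71) that did not reach 2-fold. In fibroblasts Vegfa was at 182 and 103 CPM, a fold of 1.77 (1.52 to 2.07). Hypoxia genes were called higher for 2 of 24 in tumor cells, where 4.45% of all genes tested were higher. In the 5615 and 6665 tumor cells placed alike by gate and clusters, 2 of 24 were higher and 0 lower. Their median log2 ratio there was 0.53, against 0.105 over all genes.

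**Figure D4:**
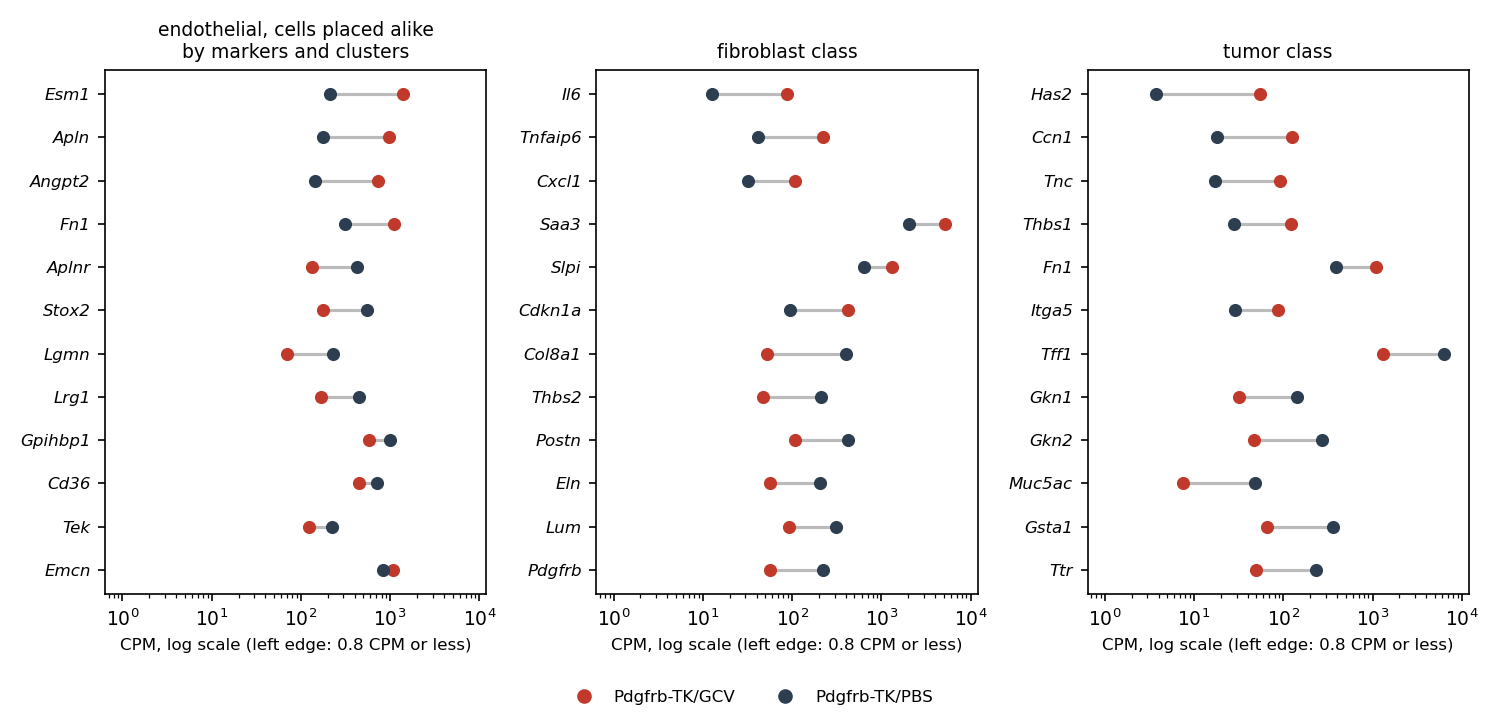
Levels in CPM on a log axis of 12 genes each in endothelial cells placed alike by markers and clusters, in the fibroblast class and in the tumor class, for Pdgfrb-TK/GCV (red) and Pdgfrb-TK/PBS (dark blue), 1 library each and without error bars. Esm1, Apln and Angpt2 lie to the right with GCV while Aplnr and Lrg1 lie to the left, and Tff1 in tumor cells is at 1311 CPM with GCV and 6320 CPM with PBS.

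All 22 genes of the stress list passed the filter in macrophages, fibroblasts and tumor cells, and their median log2 ratio was above 0 in each. This list holds immediate early and heat shock genes, which respond within the hours between resection and capture as well as to stress in the animal. It had 7 of 22 genes higher in macrophages, 11 of 22 in fibroblasts and 4 of 22 in tumor cells, with 0 lower in each. Of all genes tested in these classes, 4.35%, 2.12% and 4.45% were higher. Of the 22 genes, only 10 passed the filter in T cells, 16 in B cells, 8 in dendritic cells and 12 in gated endothelial cells. Genes high in the deeper GCV library passed more easily there, so no count or median of them is read. Neutrophils had 0 of 20 called and a median log2 ratio of -0.41. Summed over the list, macrophages were at 8595 and 4775 CPM (D-CAN 11364, WT/PBS 14106) and T cells at 5693 and 3196 CPM (D-CAN 8780, WT/PBS 10259). The PBS library had the lowest sum of all 4 libraries in 7 of the 8 classes, neutrophils being the exception. Most classes of D-CAN and WT/PBS had other gate thresholds, so this ranking is not a like comparison. The part of tissue handling in the genes of this list was not tested, and handling cannot be told apart from treatment with 1 library each.

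Within the list, Hspa1b, an inducible Hsp70, was at 396 and 103 CPM in macrophages, a fold of 3.84 (3.24 to 4.57). Jun, an immediate early factor, was at 757 and 229 CPM, a fold of 3.31 (2.96 to 3.72). Hsph1, a large chaperone of the heat shock family that is not on the list, was at 373 and 53.8 CPM, a fold of 6.93 (5.50 to 8.84). Hspa1a and Hspa1b are near-identical copies, and the division of reads between them is uncertain. Heat shock factor binds the inverted repeat GAANNTTC, and stretches of up to 30 bases around this motif are shown. They stand beside heat shock genes named here as higher in macrophages or dendritic cells. The sequences are the RefSeq windows from 250 bases before to 50 after each transcription start on GRCm38.p6, 5′ to 3′ on the strand of the gene, with the motif in capitals.
Hspa1b, chr17:34959324-34959353, minus strand, 104 bases before the start: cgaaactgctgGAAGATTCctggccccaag
Hspb1, chr5:135887791-135887820, plus strand, 117 bases before the start: cttcaacaagaGAAGTTTCcagatgggggc
Hsph1, chr5:149636277-149636306, minus strand, 21 bases after the start: tgcagattctgGAAAGTTCtcctcagtagg
Bag3, chr7:128523603-128523632, plus strand, 43 bases after the start: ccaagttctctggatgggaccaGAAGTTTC
Of 8 heat shock genes looked up, 6 were matched to a window and 5 of those held the motif, against 2582 of 32851 windows of 300 bases (7.86%). The palindrome reads alike on both strands. Hspb1, a small heat shock protein, was at 42.3 and 9.46 CPM in macrophages, a fold of 4.48 (2.59 to 8.48). Dnajb1, which helps Hsp70, was at 113 and 24.0 CPM, a fold of 4.71 (3.33 to 6.87), and neither of its windows held a match. A match describes letters and does not show binding.

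Ribosomal and translation genes had 0 called in any of the 8 classes, with medians from -0.51 in endothelial cells to 0.46 in gated neutrophils. The mitochondrially encoded genes had medians from -0.08 in fibroblasts to 0.84 in gated endothelial cells, where 4 of 12 were higher, and 0.44 in T cells. In the endothelial cells placed alike the median was 0.39 with 0 of 12 called. The part of RNA quality in the results of these classes was not tested. Interferon-induced genes had a median of -0.03 in tumor cells, with 0 of 20 called, where macrophages had -0.68.

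**Figure D5:**
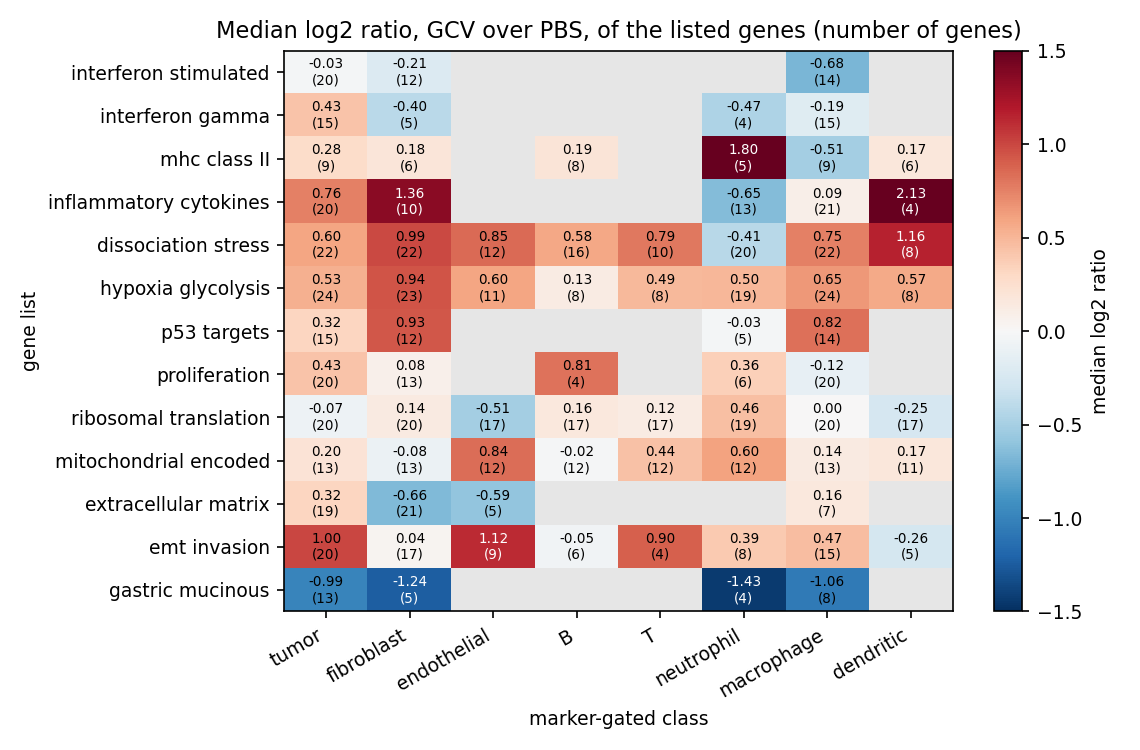
Median log2 ratio of GCV over PBS for 13 gene lists (rows) in 8 marker-gated classes (columns), with the number of genes that passed the filter in parentheses and grey where fewer than 4 passed. The dissociation stress row is above 0 in tumor cells, fibroblasts and macrophages, where all 22 genes passed, and at -0.41 in neutrophils. In columns where few of a list passed, genes high in the deeper GCV library passed more easily. The class II row is below 0 in macrophages (-0.51) and at 1.80 in gated neutrophils.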

How the data were processed

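The deposited files hold raw UMI counts per gene and cell for 4 libraries, made by the authors with Cell Ranger (7.0.0 in the matrix headers) on mm10, with STAR 2.6 named in the submitters' processing notes, and empty droplets were already left out. Libraries were identified by their titles, since the protocol text of the labels describes nuclei of another tissue. The class rules, members and gene lists were chosen with earlier results of these data known.

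Cells with at least 200 genes were kept. A cell entered a host class when it held at least 2 of its markers and their summed counts per 10000 UMIs exceeded the 95th percentile of cells with at least 5 tumor markers, with a minimum of 1 per 10000. The percentile was taken per library, and the higher value of each pair (GCV with PBS, D-CAN with WT/PBS) was used for both. A class less than 3 times above the runner-up, or at least 4 tumor markers above 20 per 10000, made the cell mixed. Other cells with at least 2 tumor markers were tumor cells. No doublet caller was run, and mixed cells entered no class. Counts were summed per class and library. Genes named were the 10 highest and 10 lowest log2 ratios per class among genes with at least 100 UMIs over the pair and at least 50 CPM in the higher library (in host classes above the tumor level there, gate markers left out), up to 4 genes of each list with the largest ratios, Pdgfrb and markers the study names. Genes named outside that rule, as other members of a list or as background to a result, were chosen after their values were seen. Clusters used 2000 variable genes, 30 components, 20 neighbors and a resolution of 1.5. Intervals were exact (Clopper-Pearson, Poisson or conditional binomial). The steps were tested on simulated data. Python 3.11.15, numpy 2.4.6, scipy 1.17.1, pandas 2.3.3, scanpy 1.11.5 and matplotlib 3.10.9 were used. Alternatives changed the cell filters, gate, depth, scaling, added CPM, count filter and free RNA. Some items are not reported here.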

Additional observations from a re-analysis of the deposited data

How the results depend on the processing

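Each condition is 1 library, so leaving out a library was not an option. No paired analysis was possible because each condition holds 1 library and no test was made. Depth limits the PBS host classes most, and the dendritic class rests on 59 and 43 cells. Where a value below moved, the cause was not tested unless the setting itself leaves out cells or genes.

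For the ratio of shares, classes taken from clusters gave 0.726 for tumor cells, 0.283 for endothelial cells, 2.13 for T cells and 0.639 for neutrophils. Thinning to 1500 UMIs, which left out 2503 and 2405 shallower cells, gave 0.731 for tumor cells, 14 for B cells, 8.47 for T cells, 3.69 for macrophages and 2.65 for neutrophils, the direction of the last being reversed. With 1 more marker the endothelial ratio was 0.32, and with at least 500 genes that of neutrophils was 0.973. Over host cells only it was 0.321 for fibroblasts, 0.31 for endothelial cells, 2.3 for B cells, 2.13 for T cells, 0.484 for neutrophils, 2 for macrophages and 0.745 for dendritic cells. In cells placed alike by gate and clusters, an alternative chosen after seeing the data, it was 0.718 for tumor cells, 0.337 for endothelial cells and 0.648 for neutrophils.

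For the number of genes higher and lower by 2-fold, adding 10 CPM gave 151 and 80 in tumor cells, 160 and 64 in macrophages and 125 lower in fibroblasts. Without the filter on low counts the numbers were 681 and 1182 in fibroblasts, 3854 and 2324 in endothelial cells, 5526 and 2184 in B cells, 5273 and 2623 in T cells, 3665 and 2010 in neutrophils, 1201 and 630 in macrophages and 3855 and 2400 in dendritic cells. With 1 more marker they were 46 and 22 in endothelial cells, 40 and 20 in T cells, 52 and 27 in neutrophils and 22 and 1 in dendritic cells. Classes from clusters gave 53 and 38 in endothelial cells, 282 and 105 in B cells and 38 higher in neutrophils. Cells placed alike gave 30 and 17 in endothelial cells and 45 and 25 in neutrophils, and median-of-ratios scaling 73 lower in neutrophils. A minimum of 500 genes, a limit of 20% mitochondrial UMIs and subtraction of free RNA moved no such number by over 1.5 times.

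Named genes past 2-fold changed direction under 3 settings, given as log2 ratios. With classes from clusters, endothelial Nkain2 was at -0.42, Pcdh9 at -0.42, Kcnq5 at -5.04, Cacnb2 at -1.87, Erc2 at -3.03, Ctsc at -0.872, 4930467D21Rik at -5.04, Ero1l at -0.0433, Mif at -0.0856, P4ha1 at -0.433 and Rgcc at 0.164. Neutrophil Cacna1d was at -0.089, Ear2 at -0.928, Ccl24 at 2.29, Stmn1 at -0.128 and Chil3 at -0.199, and dendritic Ghr at 1.21. With 1 more marker, endothelial Cacnb2 was at -0.513 and Erc2 at -3.5, neutrophil Cd74 at -0.732, and dendritic Ghr at 2.61, Hmga2 at 6.43 and Dst at 2.61. In cells placed alike, endothelial Cacnb2 was at -4.76, Erc2 at -3.65 and 4930467D21Rik at -1.96, and neutrophil Cacna1d at -0.243, Ear2 at -0.63, Ccl24 at 1.98 and Chil3 at -0.472. Of 497 named values, 296 moved by less than their interval with classes from clusters, 359 with 1 more marker, 396 with 10 CPM added, 418 with median-of-ratios scaling, 471 with at least 500 genes and 478 with the mitochondrial limit. In cells placed alike this held for 365 of 495, and with free RNA subtracted for 386 of 418.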
